A study of Mus musculus with 8 samples.

Results

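The Hox genes of the mouse, 39 genes numbered 1 to 13 in the clusters Hoxa, Hoxb, Hoxc and Hoxd, were followed in whole embryos 3 h after their dams had been given hydroxyurea or saline. They were chosen by name alone, as all array probes whose RefSeq accession belongs to a symbol made of one of these 4 cluster names and a number. This gave 43 probes among 55681 on the array, for 39 of the 20145 gene symbols that its accessions matched. Of the 39 genes, 36 were measured, meaning that a probe was well above background on 4 arrays or more. The hydroxyurea group held 4 samples of embryos whose dams had received 400 mg/kg by intraperitoneal injection, and the saline group held 4 samples whose dams had received saline in the same way. Both groups were CD-1 mice, an outbred stock, taken on gestational day 9, and the only difference that the labels give between them is the agent. Hydroxyurea inhibits ribonucleotide reductase, the enzyme that supplies deoxyribonucleotides for DNA synthesis, and the embryos were exposed through the dam. The labels mention 4 independent experiments but do not tie samples to them, nor do they say how many embryos or litters made up a sample, so p-values measure the spread between these samples.

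Hox genes encode homeodomain transcription factors that give the parts of the body axis their identity. Within a cluster they lie in numerical order and are switched on in that order, so that low-numbered genes mark the hindbrain and neck early and high-numbered genes mark the lumbar, sacral and tail regions and the limb buds later. Genes with the same number in different clusters are paralogues and often share functions. The factors bind DNA together with PBX and MEIS proteins, and Polycomb and Trithorax complexes keep the clusters silent or active. At the stage studied here the axis is still being extended from the tail bud and the limb buds are appearing.

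Cy3-labelled total RNA was measured on 1-colour Agilent arrays, and each of the 2 slides carried 2 hydroxyurea and 2 saline samples. Between 48.7% and 62.3% of the spots of an array were well above background, and the 75th percentile of its signal lay between 249 and 516. Each level below is a log2 signal minus that percentile of the same array, so that 0 marks the percentile itself. A difference is the mean of the 4 hydroxyurea arrays minus the mean of the 4 saline arrays on that scale, with the SE of a limma fit over 23173 genes and unnamed features. It passed the test, and is then called, where the p-value adjusted over all of them by Benjamini and Hochberg was under 0.05. Probes differ in brightness, so levels are compared between samples and never between genes. Defining genes of neural tube, somites, limb bud, heart, primitive erythroid cells and endothelium were well above background on all 8 arrays. So were 3 of 4 genes for tail bud and presomitic mesoderm and 2 of 3 for yolk sac endoderm.

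Nearly the whole Hox system was detectable at this stage. Of the 39 genes, 34 were well above background on all 8 arrays, among them the 23 genes numbered 1 to 8 and 11 of the 16 genes numbered 9 to 13. The exceptions were all numbered 12 or 13, the last genes of their clusters to be activated. Hoxb13, a gene of the tail end of the axis, and Hoxc12, a gene of the posterior axis and of hair follicles, were well above background on 0 arrays. Hoxc13, a hair and nail gene, was above background on hydroxyurea arrays 3 and 4 and on saline array 4, too few arrays for the test. Hoxd12, a limb gene, was above background on 3 of 4 hydroxyurea arrays and on 4 of 4 saline arrays. Hoxa13, a gene of the digits, hindgut and genital tubercle, was above background on 2 of 4 hydroxyurea arrays and on 4 of 4 saline arrays. Hoxa13 would thus have met the detection rule by its saline arrays alone. For the genes that were not measured no size of a difference is given.

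**Figure D1:**
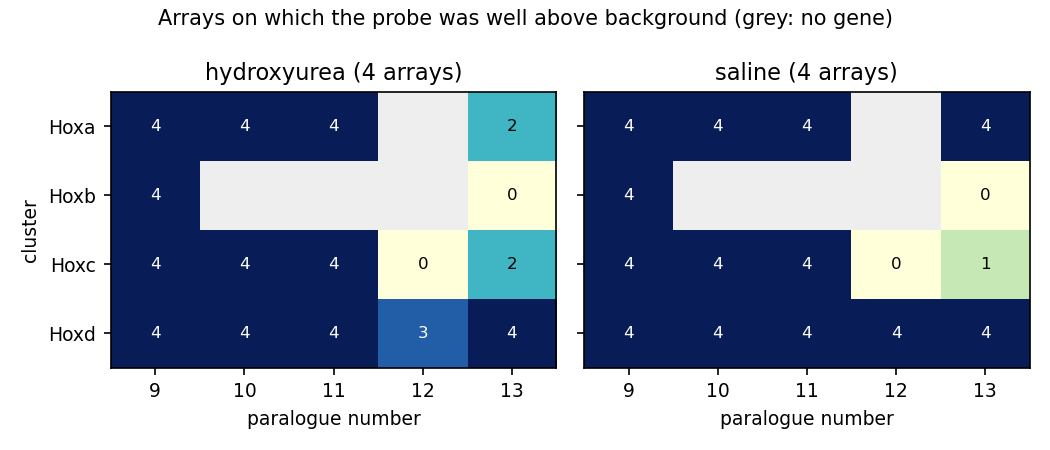
Number of arrays, out of 4 in the hydroxyurea group (left) and 4 in the saline group (right), on which the probe of each Hox gene numbered 9 to 13 was well above background, by cluster (rows) and paralogue number (columns); grey cells have no gene. All genes numbered 9 to 11 reach 4 in both groups, and counts below 4 are found only at numbers 12 and 13.

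Hydroxyurea embryos had less transcript of Hoxc11 and Hoxd9, which fell by 1.09 and 0.56 on the log2 scale (4 samples per group). These were 2 of the 34 Hox genes above background on all 8 arrays (5.88%), against 2.87% called as lower among all features so detected. Hoxa13 was called as lower too, but it is set apart because its saline arrays alone would have brought it past the detection rule. With it 3 of the 36 measured genes (8.33%) were called as lower, and 0 as higher. Among all 23173 features 6.15% were called, 3.39% as lower and 2.76% as higher, and among the named genes alone 2.02% were lower and 3.62% higher. In addition, 9 of the 36 genes (25%) had all 4 hydroxyurea arrays below all 4 saline arrays, and 0 had them all above. Over all features 15.4% did not overlap between the groups, 7.6% with hydroxyurea lower and 7.83% with hydroxyurea higher. Without Hoxa13 and Hoxd12 the count was 8 of 34, against 7.13% of the features above background on all arrays. Of the 36 differences 9 had an unadjusted p under 0.05, and all 9 were below 0. Over all features 24.8% had such a p, close to the 25% of the Hox genes, and 12.3% had it with hydroxyurea lower. Whether any of these shares differ was not tested. In whole embryos, fewer cells that express a gene and less RNA per cell cannot be told apart.

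The direction was mostly shared and mostly small. Differences lay below 0 for 29 of the 36 genes (80.6%), against 45.9% of all features. Without hydroxyurea array 2 they lay below 0 for 61.1% of the genes, against 43.5% of all features. Leaving out any other single array gave 75% to 86.1% of the genes. Centring arrays on their median shifts all differences upward alike, and then 21 of 36 (58.3%) lay below 0, against 34.7% of all features. The median Hox difference was -0.25, against 0.04 over all features. With median centring the median Hox difference was -0.13 and that of all features 0.16, and no Hox gene was called. The 8 genes that changed sign with that scaling were Hoxa3, Hoxa11, Hoxb4, Hoxc4, Hoxc5, Hoxc9, Hoxd4 and Hoxd13, all within 0.11 of 0 on the 75th percentile scale. Among the 34 genes above background on all 8 arrays, which leaves out Hoxa13 and Hoxd12, 27 differences lay below 0 and the median was -0.24. Fitted with only features detected on all arrays, Hoxb9, Hoxc11 and Hoxd9 were called, at a background of 3.84% called as lower.

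Pooled over the clusters, the 3 ranges of paralogues had different medians. For paralogues 1 to 3 the median over 8 genes was -0.04, with 4 below 0. For paralogues 4 to 8 it was -0.24 over 15 genes, with 12 below 0. For paralogues 9 to 13 it was -0.56 over the 13 measured genes, with 13 below 0. Of these Hoxa11, Hoxc9 and Hoxd13 moved above 0 with median centring. With no filter on dim probes 29 of all 39 Hox genes (74.4%) lay below 0, against 40.1% of all features. The unmeasured Hoxb13, Hoxc12 and Hoxc13 then lay above 0, on values mostly below detection. All 3 calls fell in the range 9 to 13, among them Hoxa13, whose saline arrays alone would have met the detection rule. Of the 13 measured genes in this range 11 were above background on all 8 arrays, all with differences below 0. These leave out Hoxa13 and Hoxd12 and include Hoxc11 and Hoxd9. The order did not hold within every cluster. In Hoxa the median was -0.74 for numbers 4 to 8 and -0.70 for numbers 9 to 13, and in Hoxd it was -0.04 for 1 to 3, -0.02 for 4 to 8 and -0.31 for 9 to 13. In Hoxb it was 0.0042 for 1 to 3, -0.24 for 4 to 8 and -0.81 for its 1 measured gene beyond, and in Hoxc -0.07 for 4 to 8 and -0.63 for 9 to 13. By cluster the median was -0.51 for the 11 genes of Hoxa, -0.22 for the 9 measured genes of Hoxb, -0.10 for the 7 of Hoxc and -0.24 for the 9 of Hoxd. The difference between ranges or between clusters was not tested.

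**Figure D2:**
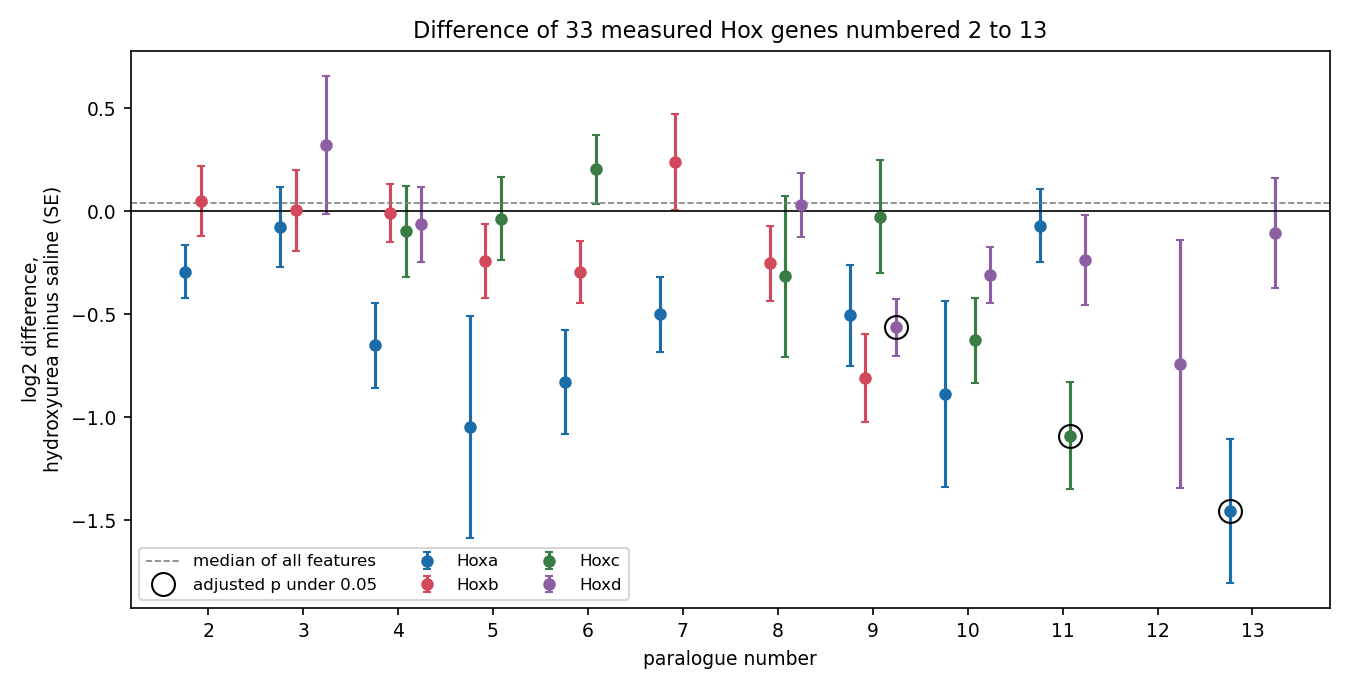
Log2 difference, hydroxyurea minus saline, with its SE (limma, 4 arrays per group) for the 33 measured Hox genes numbered 2 to 13, by paralogue number; colours mark the cluster, circles the genes with an adjusted p under 0.05, and the dashed line the median of all features, 0.04. Points at numbers 9 to 13 lie at or below -0.03, the lowest being Hoxa13 at -1.45, whereas points at numbers 2 and 3 lie between -0.29 and 0.32.

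The paralogues numbered 13 pattern the digits and the end of the body axis. Hoxa13 stood at -4.66, -5.65, -5.22 and -4.91 on hydroxyurea arrays 1 to 4, against -3.94, -2.66, -4.27 and -3.77 on saline arrays 1 to 4. The groups did not overlap, and saline array 2 was the highest of the 8. The mean was -5.11 ± 0.43 in hydroxyurea and -3.66 ± 0.70 in saline samples (SD, n = 4 each), a fall by 1.45 (SE 0.35, adjusted p = 0.043). On hydroxyurea arrays 2 and 3 its probe was not well above background, and its values there lay under the dimmest probe that was, which stood at -4.89 and -4.57 on these arrays. The size of the fall therefore rests in part on values below detection, and no fold is given. Another probe for the gene, above background on 1 array alone, gave 0.61. With a different background correction (normexp on the median spot signals) the difference was -0.29 (adjusted p = 0.38). The call was kept without saline array 3 and was lost without any other single array, with adjusted p between 0.053 and 0.097. It was also lost with quantile normalization (0.068), without the filter on dim probes (0.10), with median centring (0.0501) and with the slide as a block (0.057). Hoxd13, the gene of digit number and identity in the Hoxd cluster, was measured on all arrays and differed by -0.11 (SE 0.27, adjusted p = 0.84).

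The promoters of these paralogues are shown because Hoxa13 was called and Hoxd13 was not. Whether the genes differ from each other was not tested. They are RefSeq sequences on GRCm38.p6, from 250 bases before to 50 bases after the annotated start, read 5' to 3' on the gene's strand. Hoxa13 lies on the minus strand, chr6:52260831-52261130, and Hoxd13 on the plus strand, chr2:74667975-74668274. Capitals mark matches to the TATA box letters TATAAA on either strand, which overlap each other in Hoxd13 upstream of the start.
Hoxa13: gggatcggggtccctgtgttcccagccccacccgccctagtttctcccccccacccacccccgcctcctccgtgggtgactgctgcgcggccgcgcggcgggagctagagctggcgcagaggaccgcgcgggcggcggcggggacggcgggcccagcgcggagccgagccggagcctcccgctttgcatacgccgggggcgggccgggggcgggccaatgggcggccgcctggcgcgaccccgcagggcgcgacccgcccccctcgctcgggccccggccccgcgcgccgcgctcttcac
Hoxd13: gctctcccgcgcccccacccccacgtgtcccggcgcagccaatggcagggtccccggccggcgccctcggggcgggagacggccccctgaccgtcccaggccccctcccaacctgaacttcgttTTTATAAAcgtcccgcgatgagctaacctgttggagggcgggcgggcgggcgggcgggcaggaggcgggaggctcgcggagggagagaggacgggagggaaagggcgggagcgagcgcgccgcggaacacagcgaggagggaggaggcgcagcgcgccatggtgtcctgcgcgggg
Both windows are rich in G and C, with a GC content of 81.0% and 45 CpG dinucleotides for Hoxa13 and 74.3% and 37 for Hoxd13. The median over all 32851 promoters of the table was 52.7% and 7 CpG. It was 57.7% and 14.5 CpG over the 24 promoters that the table holds for 22 of the 39 Hox genes. TATAAA was found in 16.7% of the Hox promoters, against 13.6% of all promoters. These matches are letters in a window and say nothing of a factor's binding.

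Hoxc11 is a gene of the sacral vertebrae and hindlimb, and its group of paralogues also serves the kidney. It stood at -3.15, -3.04, -2.12 and -3.20 on hydroxyurea arrays 1 to 4, against -1.87, -2.11, -1.52 and -1.66 on saline arrays 1 to 4. The groups did not overlap, but hydroxyurea array 3 and saline array 2 were nearly level. The means were -2.88 ± 0.51 in hydroxyurea and -1.79 ± 0.26 in saline samples (SD, n = 4 each). Hoxc11 thus fell by 1.09 (SE 0.26, adjusted p = 0.041), 2.13-fold, with -1.10 on slide 1 and -1.07 on slide 2. It was the only Hox gene still called once slide entered the fit as a block (adjusted p = 0.039). The call was lost without hydroxyurea array 1 (0.12) or 4 (0.13), without each of the saline arrays (0.062 to 0.11), with median centring (0.073) and without the filter (0.10). With normexp the difference was -0.53 (0.13). Its paralogues Hoxa11 and Hoxd11, which pattern the forearm and shank, differed by -0.07 (SE 0.18) and -0.24 (SE 0.22) and did not pass.

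Hoxd9 belongs to the paralogues that place the limbs and shape the thoracic and lumbar spine. Its levels were -0.92, -0.61, -0.85 and -0.82 on hydroxyurea arrays 1 to 4, against -0.18, -0.32, -0.12 and -0.31 on saline arrays 1 to 4. The groups did not overlap, and the arrays within each lay close together. The means were -0.80 ± 0.13 in hydroxyurea and -0.23 ± 0.10 in saline samples (SD, n = 4 each). Hoxd9 fell by 0.56 (SE 0.14, adjusted p = 0.044), 1.48-fold, with -0.51 on slide 1 and -0.62 on slide 2. The call was kept without hydroxyurea array 2 (0.017) and lost without any other single array (0.081 to 0.13). It was lost with the slide as a block (0.068), normexp (0.078), no filter on dim probes (0.14) and median centring (0.22).

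The other genes numbered 9 had differences in the same direction. Hoxb9, which acts with its paralogues on ribs and on mammary gland, stood at 1.87, 1.27, 1.66 and 1.37 on hydroxyurea arrays 1 to 4, against 1.96, 2.79, 2.40 and 2.26 on saline arrays 1 to 4. The groups did not overlap, though hydroxyurea array 1 lay just under saline array 1. The difference was -0.81 (SE 0.21, adjusted p = 0.058), the lowest p in the Hoxb cluster. It passed with quantile normalization (adjusted p = 0.028), normexp (0.026), the filter for all 8 arrays (0.040) and an intensity trend in the fit (0.033). Hoxa9, a gene of the lumbar spine and of blood progenitors, differed by -0.51 (SE 0.25, adjusted p = 0.24), and a further probe for it by -0.85. Hoxc9, which sets the identity of thoracic motor neurons, differed by -0.03 (SE 0.27).

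The promoters of Hoxd9 (plus strand, chr2:74697513-74697812) and Hoxa9 (minus strand, chr6:52227321-52227620) are shown as a further pair from the same table and build. Only Hoxd9 passed the test, but the differences of both genes were similar, -0.56 (SE 0.14) for Hoxd9 and -0.51 (SE 0.25) for Hoxa9. A link between promoter sequence and difference was not tested. Neither holds TATAAA, so no base is in capitals.
Hoxd9: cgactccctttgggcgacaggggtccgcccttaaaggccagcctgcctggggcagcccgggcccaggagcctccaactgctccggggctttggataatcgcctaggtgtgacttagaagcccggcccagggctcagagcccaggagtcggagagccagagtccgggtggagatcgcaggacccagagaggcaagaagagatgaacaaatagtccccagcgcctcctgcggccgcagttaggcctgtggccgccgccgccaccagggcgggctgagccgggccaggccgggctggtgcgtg
Hoxa9: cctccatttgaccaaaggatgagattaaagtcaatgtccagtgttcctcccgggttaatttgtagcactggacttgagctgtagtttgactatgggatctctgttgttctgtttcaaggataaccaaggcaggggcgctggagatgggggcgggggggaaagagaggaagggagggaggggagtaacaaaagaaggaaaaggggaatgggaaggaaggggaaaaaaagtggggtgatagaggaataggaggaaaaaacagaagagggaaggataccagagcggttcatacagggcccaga
The Hoxd9 window has a GC content of 68.3% with 20 CpG dinucleotides, and the Hoxa9 window 49.7% with 4. Neither window held TTTATG, the letters bound by CDX factors, which stood in 20.8% of the Hox promoters and 11.9% of all promoters. Neither held TGATNNAT, the letters of a joint PBX and HOX site, found in 16.7% and 8.85%. The consensus of the p53 half-site was in neither window, and in 12.5% of the Hox promoters against 8.36% of all. All motifs were searched on both strands.

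**Figure D3:**
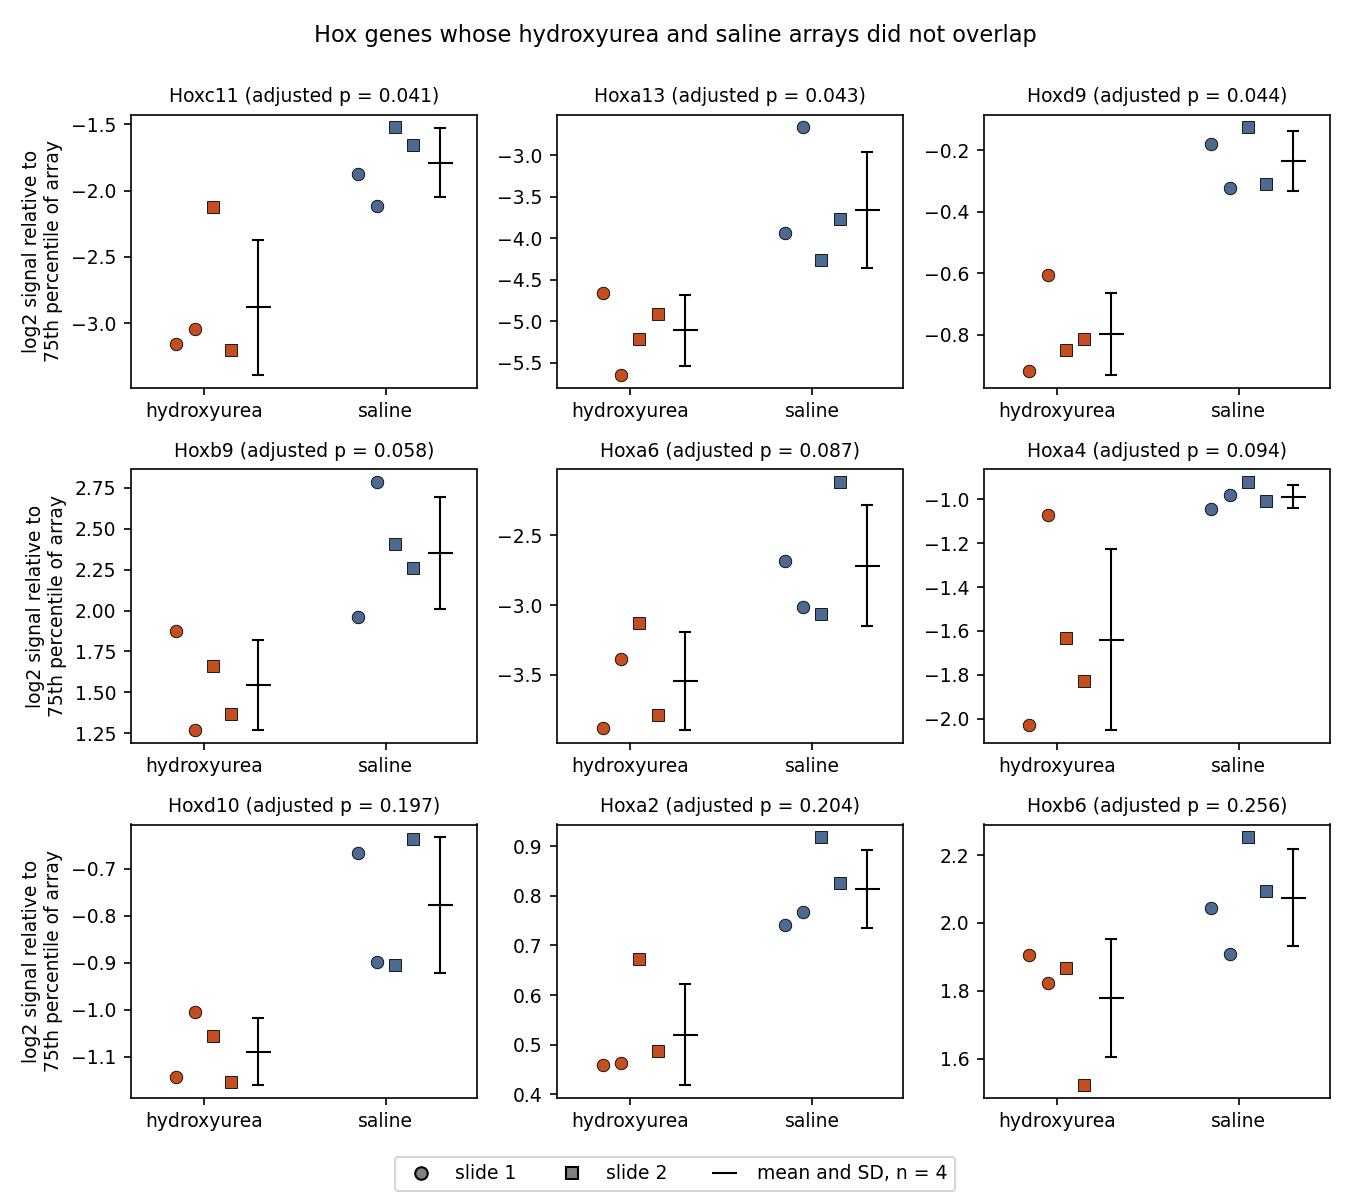
Log2 signal relative to the 75th percentile of the array for the 9 Hox genes whose hydroxyurea arrays (left in each panel) and saline arrays (right) did not overlap; circles are slide 1, squares slide 2, and bars the mean and SD of 4 arrays. In each panel every hydroxyurea array lies below every saline array, and the adjusted p is under 0.05 for Hoxc11, Hoxa13 and Hoxd9 and between 0.058 and 0.256 for the other 6 genes.

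The genes numbered 10, which suppress ribs in the lumbar region, did not pass the test in any cluster in the fit described above. With normexp Hoxa10 and Hoxc10 passed, and Hoxa10 also passed without hydroxyurea arrays 2 and 3. Hoxd10 stood at -1.14, -1.005, -1.05 and -1.15 on hydroxyurea arrays 1 to 4, against -0.67, -0.90, -0.91 and -0.64 on saline arrays 1 to 4. Its hydroxyurea arrays lay close together (SD 0.071) and below all saline arrays. The difference was -0.31 (SE 0.14, adjusted p = 0.20). Hoxa10 and Hoxc10 had larger differences, -0.89 (SE 0.45, adjusted p = 0.26) and -0.63 (SE 0.21, adjusted p = 0.11), with groups that overlapped. For Hoxa10 the hydroxyurea arrays spread from -2.94 to -0.73, against -1.61 to -0.71 on saline arrays. Hoxd12, which had the largest SE of all Hox genes, differed by -0.74 (SE 0.60, adjusted p = 0.48).

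Among the genes numbered 4 to 8, which pattern the neck and thorax, 0 of 15 were called by limma, and 3 had an unadjusted p under 0.05. Of all features 6.15% were called and 24.8% had such a p. The 4 measured in Hoxa had differences between -1.05 and -0.50, whereas the 4 in Hoxc lay between -0.32 and 0.20. Hoxa4, a gene of the cervical vertebrae, stood at -2.03, -1.07, -1.63 and -1.83 on hydroxyurea arrays 1 to 4, against -1.05, -0.98, -0.92 and -1.01 on saline arrays 1 to 4. The saline arrays lay close together (SD 0.052), and hydroxyurea array 2 lay just under them. The difference was -0.65 (SE 0.21, adjusted p = 0.094), and it passed without hydroxyurea array 2 (-0.84, adjusted p = 0.010).

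Hoxa6, a thoracic gene, stood at -3.88, -3.39, -3.13 and -3.79 on hydroxyurea arrays 1 to 4, against -2.69, -3.01, -3.06 and -2.12 on saline arrays 1 to 4. Hydroxyurea array 3 and saline array 3 were the nearest pair, and the groups did not overlap. The difference was -0.83 (SE 0.25, adjusted p = 0.087), and -0.34 with normexp. Hoxb6, its paralogue in the Hoxb cluster, stood at 1.91, 1.82, 1.87 and 1.52 on hydroxyurea arrays 1 to 4, against 2.04, 1.91, 2.25 and 2.09 on saline arrays 1 to 4. Hydroxyurea array 1 and saline array 2 were level to the second decimal. The difference was -0.30 (SE 0.15, adjusted p = 0.26), with -0.11 on slide 1 and -0.48 on slide 2. Hoxc6, the remaining paralogue and a gene of brachial motor neurons, gave 0.20 (SE 0.17).

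Hoxa5, which is needed for the lung and for the boundary between neck and thorax, had a difference of -1.05, but with an SE of 0.54 (adjusted p = 0.26). Its hydroxyurea arrays stood at -3.59, -0.59, -1.45 and -1.53, against -1.13, -0.40, -0.83 and -0.61 on the saline arrays. Hydroxyurea array 1 was far below the rest, and the groups overlapped. Hoxb5 and Hoxc5 differed by -0.24 and -0.04. Hoxa7 differed by -0.50 (SE 0.18, adjusted p = 0.13) and Hoxb7 by 0.24 (SE 0.23). Hoxb8 and Hoxc8 gave -0.25 and -0.32, and Hoxd8 gave 0.03. Hoxb4, known for the expansion of blood stem cells, Hoxc4 and Hoxd4 lay between -0.10 and -0.01.

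The genes numbered 1 to 3 pattern the hindbrain, the pharyngeal arches and the upper neck. With limma 0 of 8 were called or had an unadjusted p under 0.05, where 6.15% and 24.8% of all features did. Hoxa2, the selector gene of the hyoid arch, stood at 0.46, 0.46, 0.67 and 0.49 on hydroxyurea arrays 1 to 4, against 0.74, 0.77, 0.92 and 0.83 on saline arrays 1 to 4. It was the one gene of this range whose groups did not overlap. The difference was -0.29 (SE 0.13, adjusted p = 0.20), and it was -0.29 on each slide. Hoxb1, the first gene of its cluster to be switched on and a regulator of the hindbrain segments, differed by -0.22 (SE 0.24). Hoxd1 gave -0.40 (SE 0.31). Hoxb2 and Hoxb3 lay at 0.05 and 0.0042, and a further Hoxb3 probe gave -0.17. Hoxa3, needed for the thymus and parathyroid, gave -0.08. Hoxd3, a gene of the upper cervical vertebrae, had the highest difference of all Hox genes, 0.32 (SE 0.33, adjusted p = 0.59).

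No single array was the extreme for all Hox genes, but hydroxyurea array 2 was the lowest more often than any other. Hydroxyurea array 2 was the lowest of the 8 for 13 of the 36 genes (36.1%), against 17.4% of all features. Hydroxyurea array 1 was the lowest for 9 genes (25%) and the highest for 8 (22.2%), where it was lowest for 10% and highest for 23.8% of all features. Saline array 3 was the highest for 10 genes (27.8%), against 11.47% of all features. The median SD over the genes was 0.32 within hydroxyurea and 0.26 within saline samples, and the SD was larger in hydroxyurea for 26 of 36 genes. The share over all features was not worked out, so this may not be particular to the Hox genes. Hoxa11 and Hoxb1 are printed in up to 10 spots per array, whose SD within an array lay between 0.048 and 0.12. Between arrays of a group the SD was 0.29 in hydroxyurea and 0.14 in saline samples for Hoxa11. For Hoxb1 it was 0.23 in hydroxyurea and 0.46 in saline samples.

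**Figure D4:**
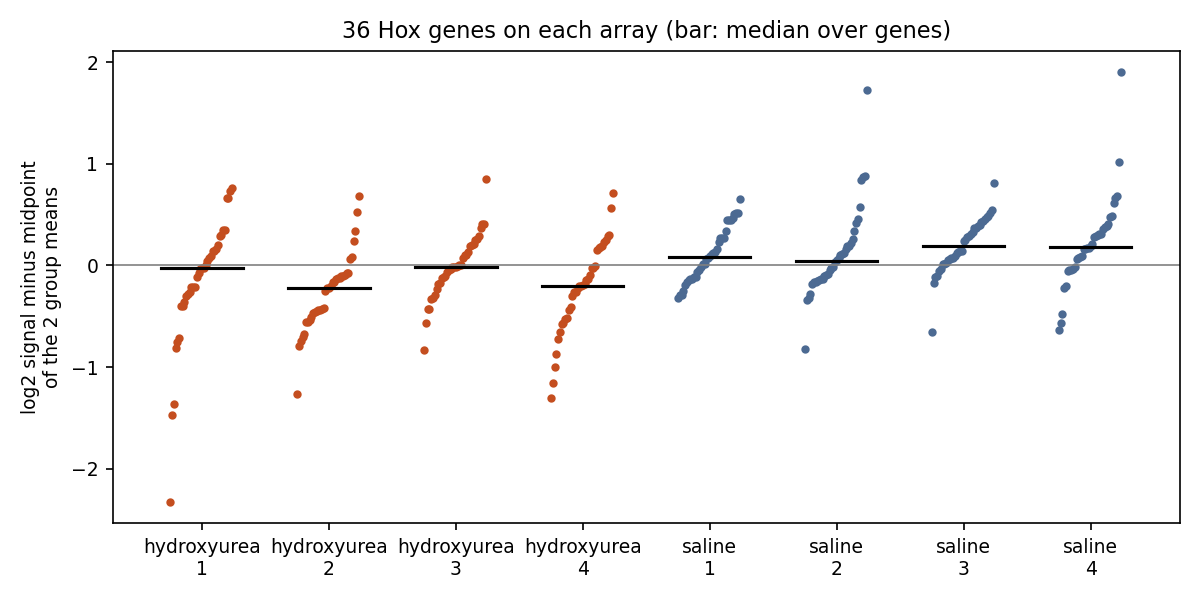
Log2 signal of each of the 36 measured Hox genes on each array, minus the midpoint of that gene's 2 group means, with hydroxyurea arrays left of saline arrays; dots are genes in rank order and bars the median over genes. The medians are -0.03, -0.22, -0.02 and -0.20 on hydroxyurea arrays 1 to 4 and 0.08, 0.04, 0.19 and 0.18 on saline arrays 1 to 4.

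Both slides gave a similar picture for the Hox genes. The median difference was -0.27 on slide 1 and -0.25 on slide 2, and 30 of 36 genes (83.3%) had the same sign on both, against 77.3% of all features. Of these 30 genes 25 were below 0 on both slides and 5 above. Across the 36 genes Pearson's r between slides was 0.77 and Spearman's rho 0.80, against 0.73 and 0.69 across all features. The genes of a slide share the same 4 arrays and are not independent replicates. A test of the difference between slides gave an unadjusted p under 0.05 for 0 of 36 genes and an adjusted p under 0.05 for 0.

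**Figure D5:**
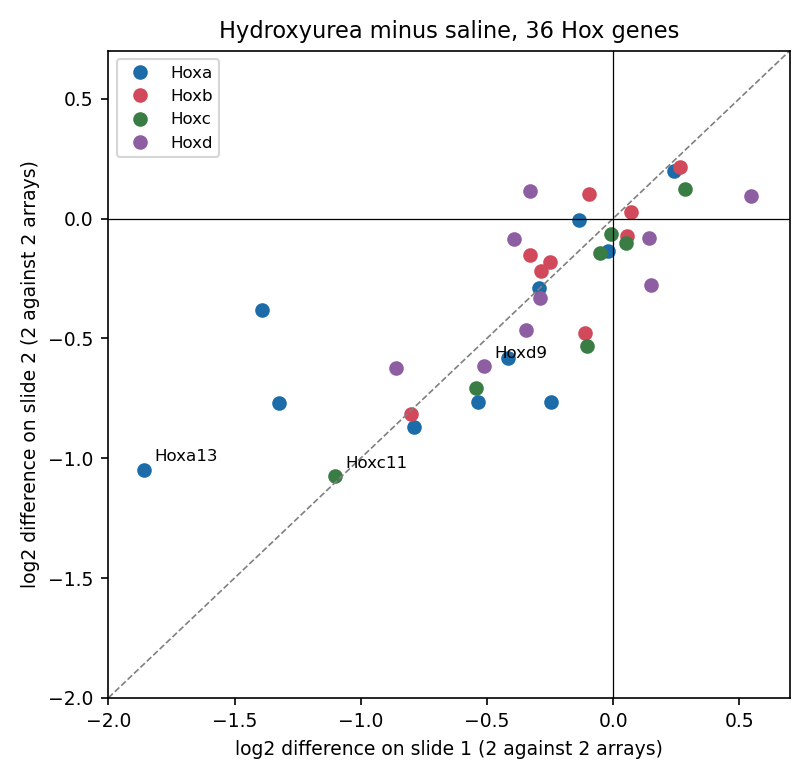
Log2 difference, hydroxyurea minus saline, on slide 1 (x axis) and slide 2 (y axis), each from 2 against 2 arrays, for the 36 measured Hox genes; colours mark the cluster and the dashed line equal values. Most points lie in the lower left, with Hoxc11 near the line at -1.10 and -1.07 and Hoxa13 at -1.86 and -1.05.

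Summed levels of 3 of the marker lists were lower on all hydroxyurea arrays than on all saline arrays, and those of the other lists overlapped. The summed signal of the 4 neural tube genes Sox2, Sox1, Pax6 and Nkx6-1, in multiples of the 75th percentile, lay between 8.96 and 11.7 on hydroxyurea arrays, against 12.4 to 14.6 on saline arrays. That of the 3 limb bud genes Tbx5, Tbx4 and Fgf10 lay between 2.54 and 3.18 on hydroxyurea arrays, against 3.58 to 4.12 on saline arrays. That of the 3 endothelial genes Kdr, Cdh5 and Pecam1 lay between 6.56 and 15.6 on hydroxyurea arrays, against 17.0 to 30.0 on saline arrays. Such sums weigh bright genes most, and Kdr, Cdh5 and Pecam1 differed by -1.16, -0.76 and -0.05. Within the lists not all genes separated: Sox1, Tbx4, Fgf10, Cdh5 and Pecam1 overlapped between the groups. Over all single features 7.6% were lower in hydroxyurea without overlap. Of these 10 genes all differences were below 0, and Tbx5, the forelimb gene, was the one called. Tbx5 stood at 0.02, 0.47, 0.60 and -0.01 on hydroxyurea arrays 1 to 4, against 1.05, 0.86, 1.17 and 1.09 on saline arrays 1 to 4. Its groups did not overlap, and it fell by 0.77 (SE 0.18, adjusted p = 0.039). Tbx4, the hindlimb gene, differed by -0.22 (SE 0.23, adjusted p = 0.59) and Fgf10, a signal for limb outgrowth, by -0.04 (SE 0.16, adjusted p = 0.90). The Tbx5 call was kept without hydroxyurea array 2 or 3 and lost without any other single array (0.069 to 0.12), with median centring (0.10), with no filter (0.11) and with slide as a block (0.058). The tail bud and presomitic mesoderm sum of T, Tbx6, Msgn1 and Fgf8 overlapped, at 3.49 to 8.46 on hydroxyurea and 4.02 to 6.29 on saline arrays. The somite sum lay at 15.4 to 25.3 on hydroxyurea and 19.9 to 24.5 on saline arrays, and the heart sum at 66.8 to 86.4 and 52.9 to 74.3. For primitive erythroid cells the ranges were 1417 to 2431 on hydroxyurea and 1447 to 2227 on saline arrays, and for yolk sac endoderm 9.57 to 51.0 and 11.2 to 143. The part of these cell types in the Hox differences was not tested.

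Transcripts listed for trophoblast and decidua stood apart on 2 hydroxyurea arrays. The sum of Prl3d1 and Prl8a2, the measured genes of 4 listed for trophoblast and decidua, was 10.6 on hydroxyurea array 2 and 68.1 on hydroxyurea array 3, between 0.075 and 0.15 on hydroxyurea arrays 1 and 4, and between 0.090 and 0.38 on saline arrays. Tpbpa was above background on 0 arrays, and Prl2c2 has no probe matched here. Without hydroxyurea arrays 2 and 3 the Hox genes called as lower were Hoxa4, Hoxa6, Hoxa10, Hoxc11 and Hoxd9, at a background of 8.98% of features. The median Hox difference was then -0.31, and 22 of 36 (61.1%) lay below 0, against 43.9% of all features. Without hydroxyurea array 2 alone, 22 of 36 lay below 0, against 43.5% of all features, and the median Hox difference was -0.23.

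Genes that act with or upstream of the Hox clusters gave 0 calls in 6 lists with limma, and 13 of their 61 measured genes had an unadjusted p under 0.05, where 24.8% of all features did. The HOX cofactors, PBX, MEIS and PKNOX proteins, had a median of -0.12 over 9 genes, with differences from -0.81 to 0.06. The signals that drive Hox activation in trunk and tail, such as Wnt3a, Gdf11 and retinoic acid receptors, had a median of -0.06 over 16 genes. Their differences lay from -0.62 to 0.42. The CDX factors, which activate posterior Hox genes, gave 0.62 (SE 0.27) for Cdx1, -0.42 (SE 0.43) for Cdx2 and 0.28 (SE 0.42) for Cdx4. The hindbrain regulators of Hox genes had a median of 0.19 over 9 genes (-0.51 to 0.94), and the Polycomb and Trithorax genes 0.12 over 20 (-0.54 to 0.66). Of 16 noncoding RNAs of the clusters 2 were matched, Hoxa11os at -0.08 and Hoxd3os1 at -0.56, and neither passed.

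Of 17 measured genes that flank the Hox clusters 2 were called, in opposite directions, where 6.15% of all features were called. Mtx2, a mitochondrial import gene beside the Hoxd cluster, stood at 4.80, 4.24, 4.48 and 4.56 on hydroxyurea arrays 1 to 4, against 3.80, 3.83, 3.81 and 3.82 on saline arrays 1 to 4. Its groups did not overlap, and it rose by 0.71 (SE 0.15, adjusted p = 0.029). The call was kept without hydroxyurea array 2 and lost without any other single array (0.059 to 0.095), with median centring (0.065) and with no filter on dim probes (0.092). Calcoco1, a coactivator gene beside the Hoxc cluster, stood at -1.79, -1.79, -1.95 and -1.87 on hydroxyurea arrays 1 to 4, against -1.15, -1.15, -0.75 and -0.90 on saline arrays 1 to 4. It fell by 0.86 (SE 0.15, adjusted p = 0.012), again with no overlap. This call was kept without each single array (0.011 to 0.046) and lost with median centring (0.076). The median over the 17 flanking genes was 0.06.

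The authors' deposited table, a list of 1346 probes that its name calls differentially expressed, holds 0 of the 43 Hox probes. Its length corresponds to 2.42% of all probes on the array, and whether the shares differ was not tested.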

How the data were processed

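RNA of whole embryos was measured on 8 arrays, 4 hydroxyurea and 4 saline, grouped by the labels' treatment. Replicate numbers follow accession order and pair nothing. The deposited files hold 1-colour intensity values made with Agilent Feature Extraction 11.5.1.1, per the submitters' processing notes and the file headers, background-subtracted and unscaled between arrays. The authors' deposited table holds log2 values which, set against the scanner files, are centred on each probe (column medians -0.51 to 0.41). How it was normalized and which test or threshold chose its probes is not given in the sources used here.

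Each array held 59305 spots. Between 151 and 315 outlier spots per array were left out, and 0 were saturated. A probe's value was its mean log2 processed signal minus the array's 75th percentile over 55681 probes. Probes well above background, in at least 0.5 of their spots, on at least 4 of 8 arrays were kept, and the brightest probe stood for its gene. Differences were fitted with limma 3.58.1 (lmFit, eBayes) in R 4.3.3 on all 8 arrays with no covariate, two-sided. Probes were named through RefSeq accessions (assembly GRCm38.p6, names and promoters only; the headers of slide 1 name mm9). On simulated data, 45 of 100 features changed by 1, 92 of 100 changed by -2 and 7 of 22973 unchanged ones were called. The number of arrays limits precision.

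The Hox genes, the companion and marker lists and the tests were chosen with earlier results of these data known. Values on every array are given for called genes, for those whose groups do not overlap and for the lowest p of a cluster without a call, and also for Hoxa5, chosen after its values were seen. The values of 1 gene that was fitted and counted with the others are not reported here. Of companion lists the called genes are named, and the few others named were chosen after their values were seen. Alternatives were quantile normalization, normexp (offset 50), median centring, no or a stricter filter on dim probes, the mean of a gene's probes, each probe tested alone, slide as a block, each slide alone, an intensity trend and leaving out arrays.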

Additional observations from a re-analysis of the deposited data

Results flagged for a closer look

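Of 72 groups of 4 arrays examined for a single distant array, one for each measured Hox gene and treatment, 4 (5.56%) held one by Dixon's criterion, about the share that chance gives (1 in 20 groups). Hoxc11 stood at -2.12 on hydroxyurea array 3, above the other hydroxyurea arrays, of which the nearest stood at -3.04. Hoxa2 stood at 0.67 on hydroxyurea array 3, above the others at 0.46 to 0.49. Hoxb3 stood at 0.81 on saline array 4, with the next saline array at 0.32, and Hoxb7 at 1.06 on saline array 1, below the other saline arrays at 1.28 to 1.30. Hydroxyurea array 3 had the lowest 75th percentile of the 8 arrays and the highest sum of Prl3d1 and Prl8a2. Without it Hoxc11 differed by -1.34 (adjusted p = 0.0085).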

How the results depend on the processing

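Of the 36 measured Hox genes 3 (8.33%) were called as lower, against 3.39% of all features. The count was 4 with quantile normalization and with an intensity trend. It was 3 with normexp, the all-array filter, the mean of probes and each probe tested alone, though not always of the same genes. In these settings 3.06% to 4.29% of all features were called as lower. The count was 1 with the slide as a block, where 2.66% of all features were called as lower. It was 0 with median centring (2.56% of all features) and with no filter on dim probes (0.93%). On slide 1 and slide 2 alone it was 0 too, where 0.13% and 0.013% of all features were called as lower. Without single arrays the count lay between 0 and 3, at 1.34% to 7.62% of all features. It was 5 without hydroxyurea arrays 2 and 3, at 8.98% of all features. The count of Hox genes called as higher was 0 in all settings. The median Hox difference was -0.13 with median centring and between -0.32 and -0.19 when arrays were left out. The cause of these changes was not tested, except that each slide alone holds 2 arrays per group.

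The calls lost were 15 of 19 for Hoxa13, 11 of 20 for Hoxc11 and 13 of 20 for Hoxd9. Hoxa4 gained a call in 2 settings, Hoxa6 in 1 and Hoxb9 in 4. Hoxa7 gained a call with quantile normalization, Hoxa10 and Hoxc10 with normexp, and Hoxa10 again without hydroxyurea arrays 2 and 3. With normexp the genes called were Hoxa10, Hoxb9 and Hoxc10, so that Hoxa13, Hoxc11 and Hoxd9 all lost their calls there.

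The 78 measured companion and flanking genes had 1 call lower and 1 higher, where 3.39% and 2.76% of all features were so called. The lower count was 4 with quantile normalization and with the trend, 3 with normexp, the all-array filter and the mean of probes, and 0 with median centring and on each slide alone. The higher count was 3 with quantile normalization, 2 with the all-array filter and the trend, and 0 with median centring, with no filter and on each slide alone. Leaving out arrays gave 1 to 3 lower and 0 to 8 higher, and 3 and 6 without hydroxyurea arrays 2 and 3.

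No paired analysis was possible because the replicate numbers follow accession order and the labels do not tie samples to experiments. Normexp on mean spot signals, planned first, was not run; the median signals were used, a choice made after the data were seen, as was leaving out hydroxyurea arrays 2 and 3 together. Of the genes numbered 12 and 13 all but Hoxd13 were below the background limit on at least 1 array, which limits what their values show.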
